A study of Mus musculus with 2 samples.

Results

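Break ends were counted at 10 genes that drive the passage of a cell from G1 phase into S phase: the cyclin genes Ccnd2, Ccnd3, Ccne1, Ccne2 and Ccna2, the kinase genes Cdk2, Cdk4 and Cdk6, and the transcription factor genes E2f1 and E2f2. They were chosen by name as genes of cell cycle entry after B cell activation, with earlier results of these data known. All 10 were found among the 49943 genes that RefSeq places on chromosomes 1 to 19, X and Y. Each was counted over the whole gene with 2 kb on either side. The assay was END-seq, in which cells are lysed inside agarose, broken DNA is tagged at its ends and sequencing reads inward from them. It was run on primary CD43- B cells from the spleens of mice that were 4 to 8 weeks old. The S-phase library came from cells activated with IL-4 at 25 ng/mL plus anti-CD40 antibody at 1 µg/mL, and the G1-phase library from quiescent cells kept without these cytokines. The culture time given for the treatment is 24 to 28 hours. Both library names begin with ATR+c, which the labels do not explain, and no strain or other genotype is given. The stated purpose was to map single-ended breaks that depend on replication, in primary cells not exposed to a damaging agent. There was 1 library in each group. Phase and cytokine treatment therefore cannot be told apart from each other or from differences between libraries, no test between the groups was possible, and the labels do not say whether the cells came from separate animals. The reads are DNA ends, which give no RNA levels, so the cell type was not checked against marker genes.

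The D-type cyclins bind Cdk4 and Cdk6 in response to mitogens and begin to phosphorylate the retinoblastoma protein, which in quiescent cells holds E2F transcription factors inactive. Freed E2F proteins switch on the genes of cyclin E, cyclin A and the replication machinery, and cyclin E with Cdk2 completes the phosphorylation. In B cells, antigen receptor and CD40 signals act on this switch mainly through cyclin D2 and cyclin D3. In END-seq a plus-strand read starts at an end and runs to the right of it, and a minus-strand read runs to the left. A break whose ends are both captured gives reads on both strands, and a single-ended break gives reads on 1 strand.

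Sequencing depth was 21997695 reads for S phase and 28933109 for G1, of which 20543572 and 26889564 lay on chromosomes 1 to 19. Each ratio divides S-phase by G1-phase reads after scaling to those chromosome totals. Intervals in parentheses are exact 95% intervals for 2 counts. They cover counting error only, and since reads stack at single positions (2.84 reads per covered position in S phase and 3.84 in G1) and no molecular identifiers were given, they are too narrow. Positions of a strand counted once are therefore given beside the reads for many of the genes and parts, but not for every bin or flank. Where only reads are given, the interval should not be taken alone. The 10 genes held 5064 S-phase and 5600 G1 reads.

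With 2 kb flanks, the S-phase library had more reads for its size at all 10 genes. The ratio was between 1.02 at Cdk6 and 1.63 at Ccna2. Counting each position once, the ratio was above 1 at all 10 as well, against 64.8% of genes with at least 50 reads and 72.5% of protein-coding ones. Their median log2 ratio by reads was 0.26, beside 0.10 over all genes with reads and 0.13 over protein-coding genes. A ratio above 1 was common everywhere: 59.5% of the 39224 genes with at least 50 reads in a library had one, as did 66.8% of the protein-coding ones. At a ratio of 1.5 or more with at least 50 reads in a library, 2 of the 10 were higher (Ccna2 and E2f2), and the same rule called 13.0% of all genes and 11.5% of protein-coding genes. At a ratio of at most 1/1.5 the count was 0 of 10, against 8.85% and 4.18%. With 5 kb flanks in place of 2 kb, 0 of 10 reached 1.5, and on the plus strand alone 1 did. With no flank, 4 of the 10 had a log2 ratio above 0 and 6 below. The interval lay above 1 for 4 genes (Ccnd3, Ccna2, E2f1 and E2f2), against 30.7% of all genes and 37.6% of protein-coding genes, which is close to the background. With positions counted once it lay above 1 for 3 of them (Ccnd3, Ccna2 and E2f2), against 11.3% and 16.0%.

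**Figure D1:**
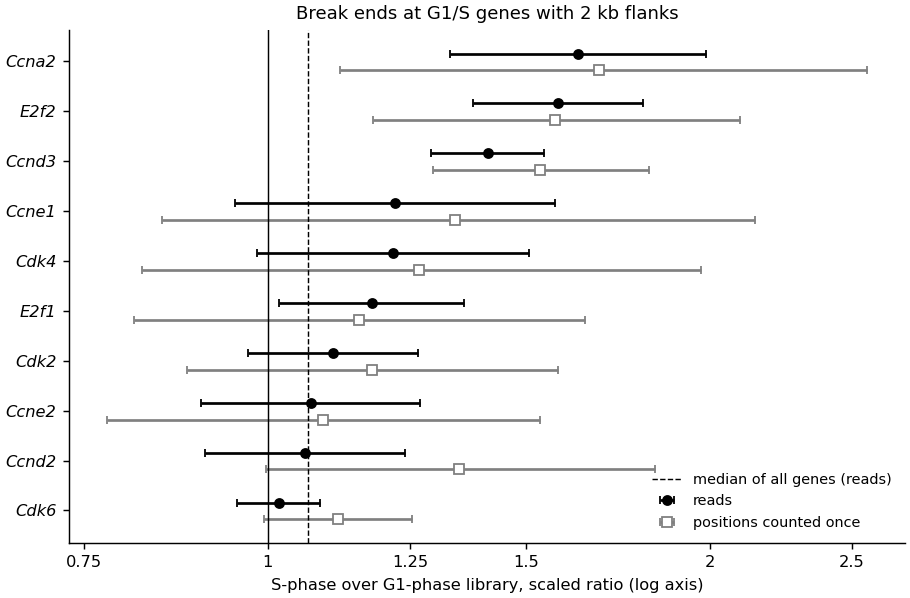
Scaled ratio of the S-phase to the G1-phase library for each gene with 2 kb flanks, on a log axis. Black points are reads and white squares positions counted once, bars are exact 95% counting intervals, and the dashed line is the median ratio of all genes with at least 50 reads, 1.06; Ccna2, E2f2 and Ccnd3 stand highest by both counts and Cdk6 lowest by reads.

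Among the D-type cyclins, by reads, Ccnd3 was higher in S phase in the gene and in both flanks. In Ccnd2, by reads, both flanks were higher and the gene was not. Positions are not given for these parts, and each of these flanks held under 50 reads in each library. The flanks of Ccnd2 were at 2.91 (1.27 to 7.25) on the left and 2.04 (1.205 to 3.52) on the right, and the gene at 0.935 (0.787 to 1.109). Ccnd3 (chr17:47505051-47599689) held 1057 S-phase reads and 980 G1 reads, a ratio of 1.41 (1.29 to 1.54), at 363 and 225 positions, a ratio of 1.53 (1.30 to 1.82). Its strands gave similar ratios, plus-strand reads 1.35 and minus-strand reads 1.47. Cyclin D3 is the D-type cyclin that dividing germinal centre B cells depend on. Ccnd2 (chr6:127125162-127152188), whose product is induced early by antigen receptor signals, held 294 S-phase and 363 G1 reads, a ratio of 1.06 (0.906 to 1.24), at 108 and 76 positions, a ratio of 1.35 (0.998 to 1.84). By reads the strands of Ccnd2 went opposite ways: 138 S-phase and 227 G1 reads on the plus strand gave 0.796 (0.639 to 0.988), and 156 and 136 on the minus strand gave 1.501 (1.19 to 1.90). By positions the plus strand of Ccnd2 was at 1.01 (0.665 to 1.54) and the minus strand at 1.90 (1.198 to 3.08). The right end of Ccnd2 overlaps the long noncoding RNA gene 9330179D12Rik over 4800 bp of the counted region, and Ccnd3 shares 7217 bp with Gm41590 and 2359 bp with Bysl.

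RefSeq lists 2 starts for Ccnd3, and the bin with the most reads lay at the second, inside the gene at position 47593467. The bin next in reads, 6000 bp right of the left end of Ccnd3 and picked after its values were seen, held 80 S-phase and 61 G1 reads. Within 500 bp of the second start there were 125 S-phase and 110 G1 reads, a ratio of 1.49 (1.14 to 1.94). By positions, 31 and 20, it was 1.47 (0.814 to 2.73). The first start held 15 and 10 reads. On the minus strand 66 S-phase and 61 G1 reads fell between 47593374 and 47593394, and 28 and 27 of them on the single base 47593377. Both libraries thus had the same leading position. The cluster covers part of a match to a motif of 4 runs of at least 3 G separated by 1 to 7 bases, a pattern known to be able to fold into a G-quadruplex. It is shown because break ends of both libraries meet it on the strand opposite to the G runs. The sequence is the 250 bases before the second start (RefSeq, GRCm38.p6, chr17:47593217-47593466, plus strand), with the motif match in capitals.

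Ccnd3: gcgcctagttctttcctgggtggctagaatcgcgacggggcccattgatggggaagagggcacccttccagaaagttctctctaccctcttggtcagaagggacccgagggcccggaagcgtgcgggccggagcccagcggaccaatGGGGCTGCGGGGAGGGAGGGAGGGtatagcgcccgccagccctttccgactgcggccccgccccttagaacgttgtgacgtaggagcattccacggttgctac

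The match runs along 47593364 to 47593387 and held 66 S-phase and 57 G1 reads on the minus strand, against 3 and 6 on the plus strand. Outside the cluster Ccnd3 had 991 S-phase and 919 G1 reads, with a ratio of 1.41, as over the whole region. The S-phase excess of Ccnd3 was therefore not carried by the cluster.

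The E-type cyclin genes, whose products activate Cdk2, were near the median of all genes over their whole regions. Ccne1 (chr7:38097984-38107490) held 126 S-phase and 135 G1 reads, a ratio of 1.22 (0.951 to 1.57). Within 500 bp of its start there were 50 and 39 reads, a ratio of 1.68 (1.08 to 2.62). By positions, 17 and 10, the start ratio was 1.62 (0.699 to 3.95). In the rest there were 76 and 96 reads, a ratio of 1.04. Ccne1 is the only one of the 10 in which no position was covered in both libraries, 0 of 82. Its promoter is shown as a contrast to that of Ccnd3: the motif match, in capitals, held no S-phase read on either strand and 3 G1 reads on the plus strand (RefSeq, GRCm38.p6, chr7:38107491-38107740, minus strand).

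Ccne1: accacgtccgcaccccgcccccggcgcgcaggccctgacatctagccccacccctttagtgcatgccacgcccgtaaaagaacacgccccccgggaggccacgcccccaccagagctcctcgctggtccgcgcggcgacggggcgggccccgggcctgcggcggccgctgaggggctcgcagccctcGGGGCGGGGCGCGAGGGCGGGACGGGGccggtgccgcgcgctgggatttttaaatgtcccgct

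Ccne2 (chr4:11190433-11204779) held 246 S-phase and 301 G1 reads, a ratio of 1.07 (0.900 to 1.27), and the flat total covered opposite sides. Its left flank had 44 S-phase and 13 G1 reads, a ratio of 4.43 (2.34 to 8.97), and its right flank 14 and 36, a ratio of 0.509 (0.254 to 0.967). In the 500 bp bin just left of the gene there were 26 S-phase reads, all on the minus strand, at 6 positions, and 2 G1 reads, at 1. No start of Ccne2, Ccnd2 or Ccna2 was in the promoter table, so both of their ends are described. The left part of Ccne2 is also covered by the noncoding gene A630034I12Rik and the right part by Ints8.

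Ccna2 (chr3:36564865-36573038), whose cyclin works with Cdk2 during DNA replication, had the highest ratio of the 10. It held 225 S-phase and 181 G1 reads, a ratio of 1.63 (1.33 to 1.99), which stood at the 90.9th percentile of genes with at least 50 reads. By positions, 69 and 39, the ratio was 1.68 (1.12 to 2.56). Both strands were higher in S phase, with ratios of 1.72 and 1.56 on the plus and minus strand. The bin with the most reads in both libraries, chr3:36571865-36572364, held 93 S-phase and 69 G1 reads, a ratio of 1.76 (1.28 to 2.44), at 21 and 13 positions of which 7 were shared. It lies inside the gene near its right end, and the windows within 500 bp of the ends held few reads, 0 S-phase and 14 G1 reads at the left and 10 and 13 at the right. The flanks overlap Exosc9 on the left and Bbs7 on the right.

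The kinase genes had ratios between 1.02 and 1.22, all within their counting error of the median gene. Cdk6 (chr5:3341004-3531008), the partner of D-type cyclins and the longest gene of the 10, held 1674 S-phase and 2154 G1 reads, a ratio of 1.02 (0.954 to 1.08), with like values on both strands. Its region shares 4556 bp with the noncoding gene Gm36470 and 19218 bp with Gm29868, and that of Cdk4 shares 2002 bp with Tspan31. Of the 1193 covered positions of Cdk6, 3 were shared between the libraries. Cdk4 (chr10:127063535-127067288), the other partner of D-type cyclins, held 173 S-phase and 186 G1 reads, a ratio of 1.22 (0.984 to 1.51). Most of these lay within 500 bp of its start, 102 in S phase and 95 in G1, with a ratio of 1.41 (1.05 to 1.88). By positions, 27 and 18, the start ratio was 1.43 (0.757 to 2.75). By reads the bin just before the start was higher in S phase, 71 against 43 in G1, a ratio of 2.16 (1.46 to 3.23). By positions, 17 and 9, that bin was at 1.80 (0.757 to 4.57). The bin just after the start was not higher, at 31 S-phase against 52 G1 reads, a ratio of 0.780 (0.483 to 1.24).

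Cdk2 (chr10:128697938-128705051), the kinase of cyclins E and A, had the highest level per kb of the 10 in both libraries, and most of it lay beside the gene rather than in it. The region held 415 S-phase and 490 G1 reads, a ratio of 1.109 (0.970 to 1.27), of which 296 and 364 lay in the 2 kb left flank. That flank overlaps Rab5b, a gene of vesicle transport whose listed start is at 128696268, and the whole region lies within Pmel, a pigment cell gene, as RefSeq bounds it. A cluster of plus-strand ends there, chr10:128696576-128696590, held 108 S-phase and 171 G1 reads, a ratio of 0.827 (0.644 to 1.06), and a second at 128696273 to 128696291 held 30 and 41. The Cdk2 gene itself held 42 S-phase and 84 G1 reads, a ratio of 0.654 (0.441 to 0.959), and its right flank, which is its upstream side, 77 and 42, a ratio of 2.40 (1.63 to 3.58). By reads, the value of the whole region is thus made of a flat part near another gene, a low gene body and a high start. By positions, 22 and 15, the window within 500 bp of the Cdk2 start was at 1.39 (0.691 to 2.89). Positions are not given for the gene body or the flanks of Cdk2.

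The promoters of Cdk4 and Cdk2 also hold the G-run motif, in capitals, and are shown because their reads in it lay mainly on the plus strand, where those of Ccnd3 lay on the minus strand. For Cdk4 (RefSeq, GRCm38.p6, chr10:127063285-127063534, plus strand) the G runs are on the minus strand and appear as runs of C. For Cdk2 (chr10:128705052-128705301, minus strand) the match runs on past the start, to 8 bases beyond it, and its first 30 bases are marked.

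Cdk4: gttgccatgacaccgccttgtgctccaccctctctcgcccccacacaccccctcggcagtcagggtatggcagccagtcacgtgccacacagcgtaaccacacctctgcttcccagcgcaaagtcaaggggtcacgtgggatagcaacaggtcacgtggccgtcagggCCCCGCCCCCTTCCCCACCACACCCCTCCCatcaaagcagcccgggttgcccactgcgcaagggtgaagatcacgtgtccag

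Cdk2: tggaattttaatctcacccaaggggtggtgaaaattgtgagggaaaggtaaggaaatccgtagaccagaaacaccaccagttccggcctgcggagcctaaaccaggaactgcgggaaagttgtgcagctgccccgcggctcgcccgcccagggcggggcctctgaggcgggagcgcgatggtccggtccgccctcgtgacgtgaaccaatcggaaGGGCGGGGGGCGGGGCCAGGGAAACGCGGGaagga

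In Cdk4 the match held 20 plus-strand and 6 minus-strand reads in S phase, and 5 and 0 in G1. In Cdk2 it held 21 plus-strand and 7 minus-strand reads in S phase, and 10 and 0 in G1. At both genes the strand opposite to the G runs had more reads in both libraries, and S phase had more than G1 on each strand. These counts are small, and neither promoter held a cluster of at least 30 reads in each library.

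The E2F genes, whose products activate cyclin and replication genes, had, with Cdk2, the most reads per covered position of the 10. E2f1 was first, with 4.85 reads per position in S phase and 6.54 in G1. E2f1 (chr2:154559400-154569892) held 359 S-phase and 399 G1 reads, a ratio of 1.18 (1.02 to 1.36), at 74 and 61 positions, a ratio of 1.15 (0.811 to 1.65). On the upstream side, 81 to 115 bp beyond the right end of the gene, 1 minus-strand cluster (chr2:154569973-154570007) held 207 S-phase and 182 G1 reads, a ratio of 1.49 (1.21 to 1.83). That is 57.7% of the S-phase reads of E2f1 and 45.6% of its G1 reads. Without the cluster 152 S-phase and 217 G1 reads were left, and the ratio was 0.917 (0.740 to 1.13). The remainder was uneven, and it includes the 2 kb left flank of E2f1, with 2 S-phase and 41 G1 reads. The bin chr2:154569400-154569899, at the right end of E2f1, held 25 S-phase and 4 G1 reads, a ratio of 8.18 (2.82 to 32.3). By positions, 7 and 2, that bin was at 3.33 (0.634 to 32.8).

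Inside that cluster 18 minus-strand positions were covered in S phase and 14 in G1, of which 13 were shared. The base with the most S-phase reads was 154569995, with 36 S-phase and 27 G1 reads, and the base with the most G1 reads was 154569989, with 16 and 34. Over the whole E2f1 region 18 of 117 covered positions were shared, or 15.4%, at the 99.5th percentile of genes. Over all genes together the share was 0.921%. The 2 kb left flank of E2f1, which overlaps Necab3, went the other way with 2 S-phase and 41 G1 reads.

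By reads, E2f2 (chr4:136172274-136196057) was higher in S phase at its 2 starts together and in the rest of its region together. It held 495 S-phase and 411 G1 reads, a ratio of 1.58 (1.38 to 1.80), at 132 and 80 positions, a ratio of 1.57 (1.18 to 2.10). As with Ccne1, no other RefSeq gene overlaps its counted region. The windows within 500 bp of its 2 listed starts held 221 S-phase and 183 G1 reads, a ratio of 1.58. The first start was at 1.80 (1.37 to 2.37) and the second at 1.34 (0.985 to 1.82). By positions the starts together were at 1.39 (0.840 to 2.34). The rest of the region held 274 and 228 reads, a ratio of 1.57 (1.31 to 1.88), and by positions 1.66 (1.17 to 2.39). The right flank of E2f2 went the other way, with 11 S-phase and 34 G1 reads, a ratio of 0.423 (0.194 to 0.856). All of the excess was on the minus strand: 350 S-phase and 206 G1 reads there gave a ratio of 2.22 (1.87 to 2.65), and 145 and 205 on the plus strand gave 0.926 (0.743 to 1.15).

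At the first start of E2f2 a minus-strand cluster lay 40 to 55 bp upstream, with 79 S-phase and 80 G1 reads, a ratio of 1.29 (0.935 to 1.79). The base 136172223 alone held 36 S-phase and 33 G1 reads. The cluster lies in a match to the same motif, and the 250 bases before the start are shown for that reason (RefSeq, GRCm38.p6, chr4:136172024-136172273, plus strand, match in capitals).

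E2f2: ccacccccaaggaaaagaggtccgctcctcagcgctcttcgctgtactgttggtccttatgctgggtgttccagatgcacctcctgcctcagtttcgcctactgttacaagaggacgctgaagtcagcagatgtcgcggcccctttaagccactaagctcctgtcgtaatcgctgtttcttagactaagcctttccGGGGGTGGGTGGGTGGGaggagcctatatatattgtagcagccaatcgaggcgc

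Inside the match there were 79 minus-strand and 1 plus-strand reads in S phase, and 76 and 1 in G1. The G runs are on the plus strand, so reads lay on the opposite strand, as in Ccnd3. Without the cluster the ratio of E2f2 was 1.65 (1.42 to 1.91), higher than with it. The clusters of E2f1 and of the left flank of Cdk2 lie outside the promoter sequences used here, and their bases were not searched.

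**Figure D2:**
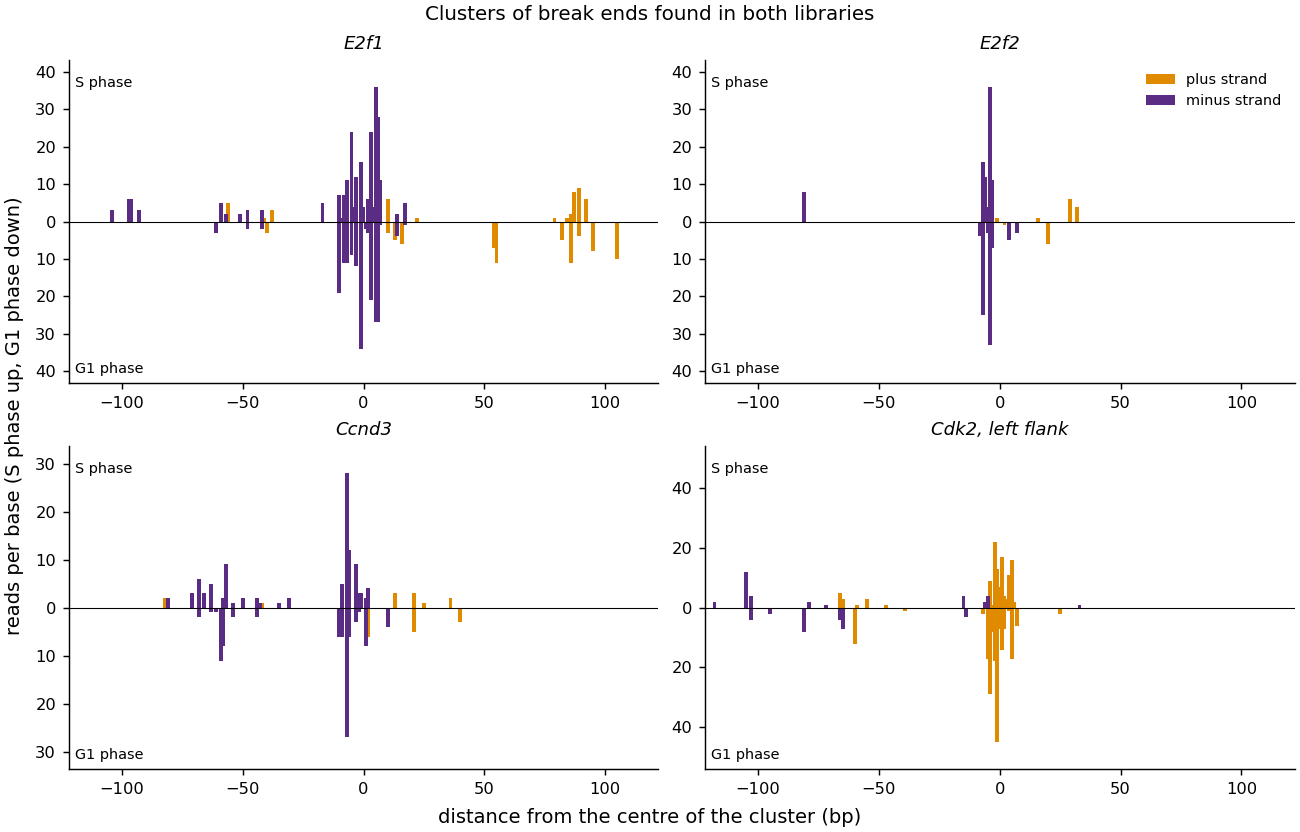
Reads per base around the centre of the largest cluster of E2f1, E2f2, Ccnd3 and the left flank of Cdk2, S phase upward and G1 phase downward, with the plus strand in orange and the minus strand in purple. In each panel the ends of both libraries pile up within 35 bases on 1 strand, the minus strand in E2f1, E2f2 and Ccnd3 and the plus strand beside Cdk2.

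Clusters of this kind, with at least 30 reads of each library within 20 bp of 1 strand, were found in 4 of the 10 genes, 2 kb flanks included. Those of Cdk2 lie outside the gene, near the listed start of Rab5b, and that of E2f1 lies beyond its right end. The same rule, which was chosen after such clusters had been seen, finds one in 4.52% of all genes with at least 50 reads and in 7.34% of protein-coding genes. Flanks are included there too. The share of covered positions common to both libraries was 14.5% in Cdk2, 6.93% in Ccna2, 4.43% in E2f2 and 3.16% in Ccnd3. In the other 5 it was between 0 in Ccne1 and 2.25% in Cdk4, beside a median of 0 over genes.

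Break ends were denser at gene starts than elsewhere in both libraries in 6 of the 7 genes with a listed start, and the ratio between libraries, summed over the genes, was higher there. A start here is a start listed by RefSeq or the outer end of the gene on its start side, which differ in E2f1 and Cdk6. Within 500 bp of these starts the 7 genes held 909 S-phase and 799 G1 reads, a ratio of 1.49 (1.35 to 1.64), and in the rest 3390 and 3956, a ratio of 1.12 (1.07 to 1.17). This is the general pattern: over 16250 protein-coding genes with a listed start the start ratio was 1.47 and that of the rest 1.03. Without E2f1 the start ratio of the members was 1.57 (1.39 to 1.77), with listed starts alone the ratio of all 7 was 1.599, and by positions over all 7 it was 1.40 (1.12 to 1.754). Over the 7 genes the median ratio of the density at starts to that of the rest was 8.22 in S phase and 6.74 in G1. Over protein-coding genes it was 1.67 and 1.42. With the reads of each set summed, the contrast was smaller. The density ratio was then 9.13 in S phase and 6.88 in G1 over the 7 genes. Over protein-coding genes it was 4.07 and 2.85. Without E2f1 the summed S-phase value of the members was 6.91. This difference in density was not tested.

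Relative to the rest of the same region, start densities differed widely between the genes, in S phase and in G1. E2f1 stood highest, at 50.2 and 24.9 times the rest, through the window at its outer gene end with 303 S-phase and 275 G1 reads. The listed start of E2f1, whose window overlaps that one, held 27 and 23 reads. E2f2 was at 10.4 and 10.3 times, and Cdk4 at 9.69 and 7.04 times. Ccne1 was at 8.22 and 5.08 times, and Ccnd3 at 7.37 and 6.74 times. Cdk2, whose rest includes the clusters near Rab5b, was at 2.09 and 1.12 times. Cdk6 was at 1.16 and 0.853 times, with 12 S-phase reads and 1 G1 read at its listed start and 8 and 18 at its gene end. With the windows of a gene summed, Cdk2 had the highest ratio between libraries, 1.90 (1.30 to 2.79), from 71 S-phase and 49 G1 reads. By positions it was 1.39 (0.691 to 2.89).

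**Figure D3:**
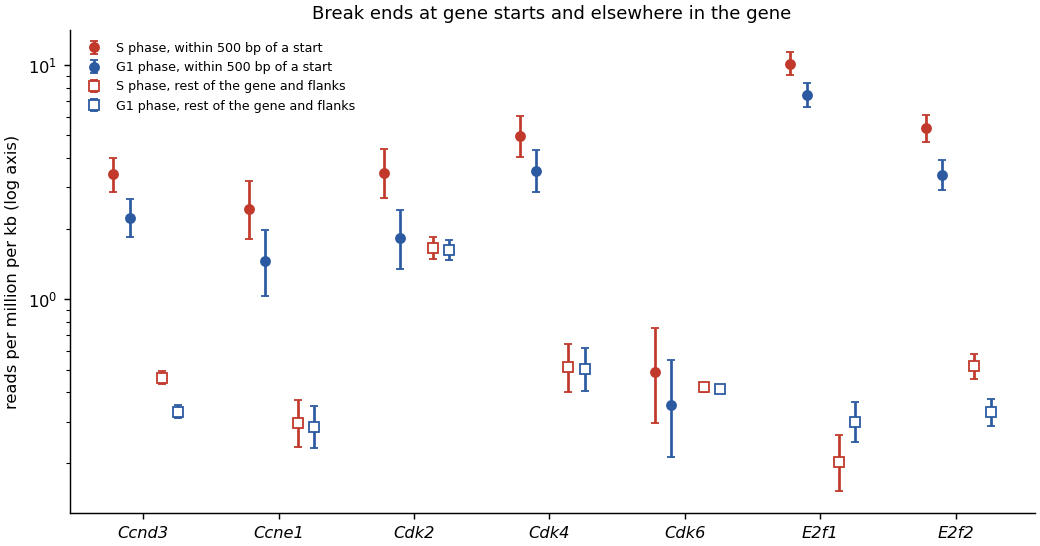
Read density in RPM per kb, on a log axis, within 500 bp of the listed starts and, in E2f1 and Cdk6, also of the gene end on the start side (filled circles) and in the rest of the gene with its flanks (open squares), S phase in red left of G1 phase in blue, with exact 95% Poisson intervals. The circles stand well above the squares except in Cdk6 and, in G1, Cdk2, and in E2f1 the squares are lower in S phase than in G1.

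The members' median depended on the flanks. Over the gene alone, with no flank, their median log2 ratio was -0.019, with 4 above 0 and 6 below, beside 0.10 over all genes. The highest genes stayed high there: Ccna2 was at 1.745, E2f2 at 1.63 and Ccnd3 at 1.37, and 2 genes were again past 1.5. On the plus strand alone it was 0.011, with 6 above and 4 below, and on the minus strand alone 0.57, with 10 above. Over all genes the strands gave medians of 0.10 and 0.11.

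The share of reads on the plus strand was lower in S phase with intervals that do not overlap in 3 genes, Ccnd2, E2f1 and E2f2. In the S-phase library Ccnd2 had 46.9% (41.1 to 52.8), and in the G1 library 62.5% (57.3 to 67.5). In E2f1 it was 24.5% (20.1 to 29.3) and 40.6% (35.7 to 45.6). E2f2 had 29.3% (25.3 to 33.5) and 49.9% (44.9 to 54.8). In none of the other 7 did the intervals lie apart. Of 31109 genes with at least 50 reads in each library the share was lower in S phase with intervals apart in 9.31% and higher in 9.69%, and of protein-coding genes in 9.61% and 10.2%. With positions counted once E2f2 alone kept its intervals apart, with 37.9% (29.6 to 46.7) for S phase against 58.8% (47.2 to 69.6) for G1. The share of all genes with intervals apart by positions is not given, so this is not read as particular to E2f2.

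Levels per kb, flanks included, put Cdk2 first and Cdk6 near the typical gene. Cdk2 had 1.82 (1.65 to 2.00) RPM per kb in S phase (RPM, reads scaled to the library's total on chromosomes 1 to 19), against 1.64 (1.498 to 1.79) in G1, above the next gene in both. The left flank of Cdk2, which overlaps Rab5b, was at 7.20 in S phase and 6.77 in G1, and the Cdk2 gene itself at 0.287 and 0.439. E2f1 followed with 1.21 (1.08 to 1.34) and 1.02 (0.926 to 1.13), and Cdk4 with 1.09 (0.930 to 1.26) and 0.892 (0.768 to 1.03). Their intervals overlap in both libraries. In S phase Ccna2 at 0.900 and E2f2 at 0.867 overlapped each other, and E2f2 stood above Ccne2 at 0.653, which stood above Ccnd3 at 0.522. The lowest, Ccnd3, Ccnd2 at 0.461, Ccne1 at 0.454 and Cdk6 at 0.420, did not differ from one to the next beyond counting error. In G1 Ccne2 at 0.610, Ccna2 at 0.553 and E2f2 at 0.5501 came next. The intervals of Ccne2 and E2f2 lay apart from that of Ccnd2 at 0.435, and that of Ccna2 overlapped it. Below were Cdk6 at 0.413, Ccne1 at 0.372 and Ccnd3 at 0.369. The median over genes was 0.391 in S phase and 0.378 in G1.

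The surroundings of most members were themselves slightly richer in S-phase reads. The ratio over 1 Mb around each gene, leaving the gene and its flanks out, was between 0.970 at Ccne1 and 1.21 at E2f2. The surroundings of E2f2 stood at the 94.5th percentile of genes, and the median over genes was 1.07. Relative to that surrounding Ccna2 was at 1.55, E2f2 at 1.30, Ccne1 at 1.26 and Ccnd3 at 1.21. Cdk2, Cdk6, Ccne2 and Ccnd2 were then below 1, at 0.942, 0.943, 0.932 and 0.9504. How far the surroundings set the genes' ratios was not tested.

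Along the genes, reads gathered in few places. Of 864 bins of 500 bp in the 10 regions, 42 had at least 20 reads in a library. Of these 42, 11 (26.2%) had an S-phase to G1 ratio of 2 or more and 13 (31.0%) a ratio of 0.5 or less. The same rule over bins of all genes gave 17.6% and 57.4% of 84456 (higher and lower). A bin can enter through its reads in either library, and the G1 library has more reads and more reads per position, so the balance of higher and lower bins is not read as a direction. Of the 13 lower bins 7 were in Cdk6 and 3 in Ccnd3, away from their listed starts, while E2f2 had 3 of the higher bins and no lower one. One of these, chr4:136179774-136180273, inside the gene, had 22 S-phase reads at 6 positions and 0 in G1.

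The share of bins without any read was 21.4% in S phase and 46.4% in G1 in E2f2. In Ccnd3 it was 24.2% and 38.4%. It was lower in G1 in Cdk2, with 26.1% in S phase and 17.4% in G1, and in Ccne2, with 21.6% and 18.9%. E2f1 had its reads in 1 place: its leading bin, chr2:154569900-154570399, held 278 S-phase and 271 G1 reads, or 77.4% and 67.9% of the gene's totals. In Cdk6 the leading bins held 25 S-phase reads of 1674 and 30 G1 reads of 2154, and they were different bins. In Ccnd2 they also differed: chr6:127152162-127152661, at the right end, had 30 S-phase and 7 G1 reads, and chr6:127136662-127137161, inside the gene, had 1 and 30.

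**Figure D4:**
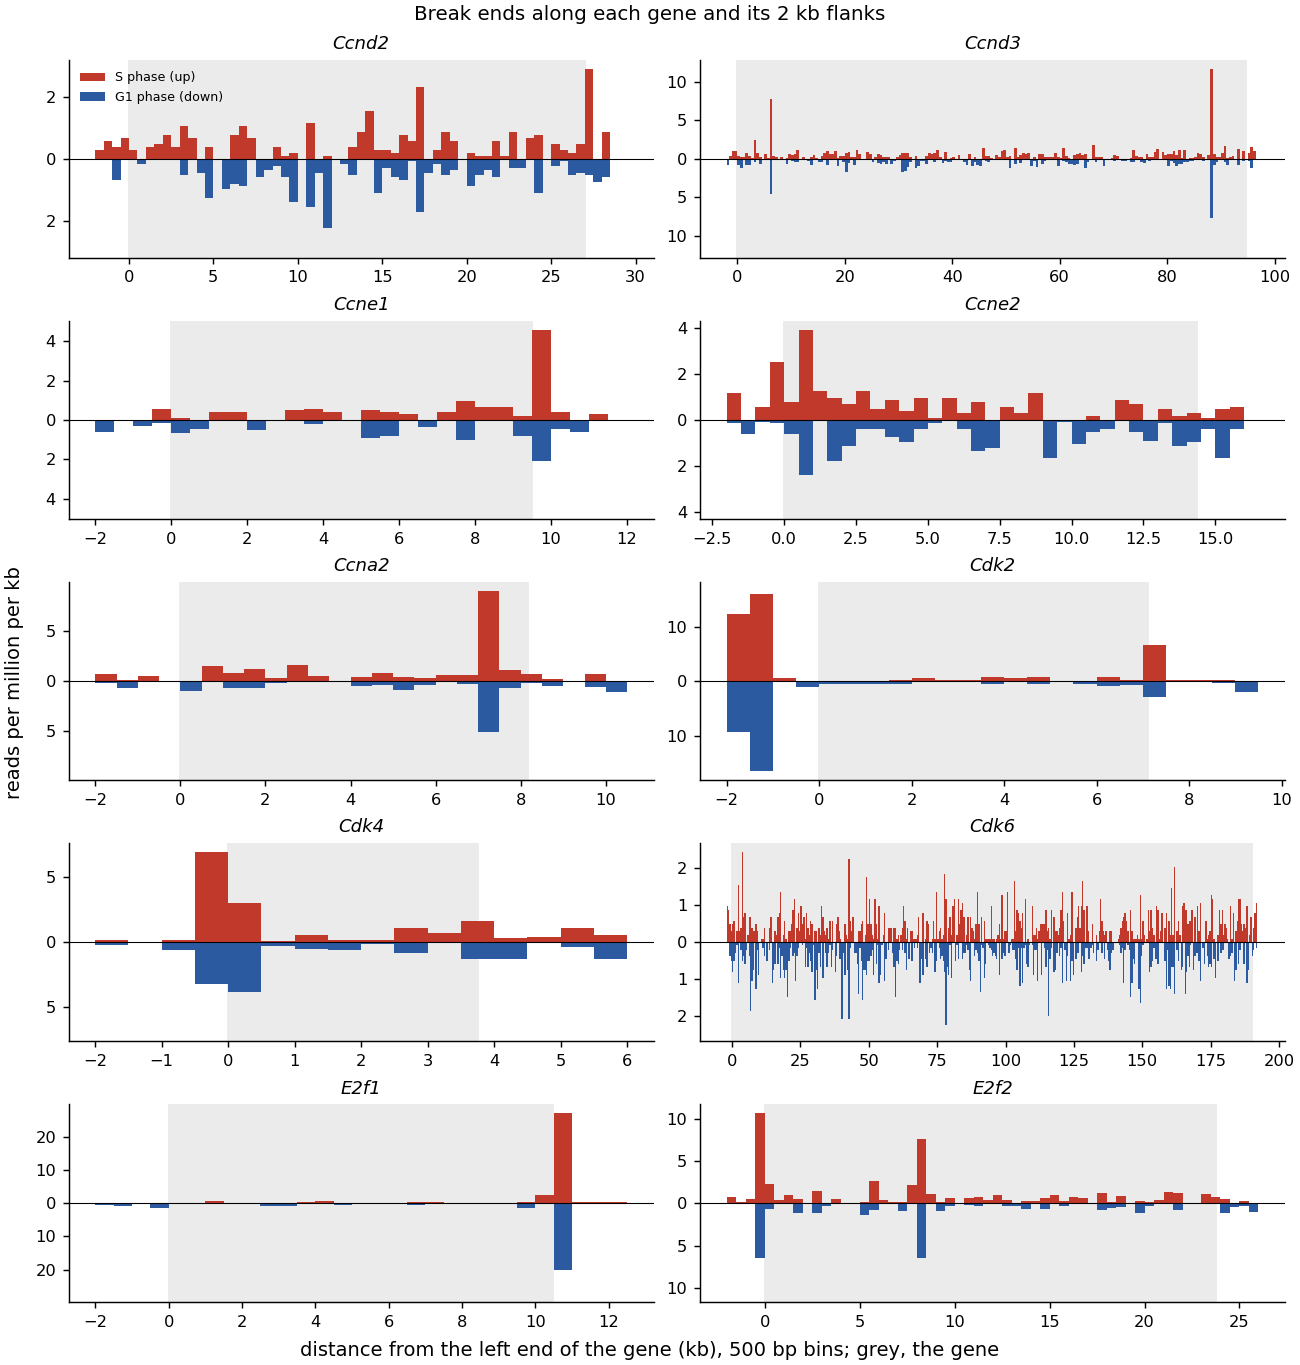
Read density in RPM per kb in 500 bp bins along each gene and its 2 kb flanks, S phase in red upward and G1 phase in blue downward, with distance from the left end of the gene in kb and the gene in grey. E2f1, E2f2, Ccnd3, Ccna2, Cdk4 and the left flank of Cdk2 each have 1 or 2 bins that stand out in both libraries, and Cdk6 has none.

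The strand pattern at the G-run motif was also present over all promoters. Searched on both strands, 6 of the 9 listed promoters of the members hold a match, 1 each in E2f1, E2f2, Ccne1, Cdk4, Cdk2 and Ccnd3. Of 32817 promoters of the same 300 bp length, 6105 (18.6%) hold one. These include promoters of genes that do not code for protein, and no share for protein-coding genes alone is given. The E2f1 window lies inside the gene, and the bases before the outer gene end at 154569892 were not searched. Over all promoters with a match, S-phase reads inside it reached 159 per kb on the strand opposite to the G runs and 40.0 on the same strand, and G1 reads 119 and 27.3. Outside the match they were 32.2 and 32.0 in S phase, and 26.7 and 26.4 in G1. Where at least 5 reads lay in the match, 82.7% of promoter and strand pairs in S phase and 84.0% in G1 had more on the opposite strand. Most matches held no read at all, 60.2% in S phase and 71.1% in G1, as E2f1's did. A cluster was present in 5.52% of promoters with a match and in 2.77% of those without. A match shows only that these letters are in the window.

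The letters bound by E2F proteins were also searched, as TTTCCCGC, TTTCGCGC, TTTGCCGC and TTTGGCGC on both strands. Of the members' 9 promoters, 1 of E2f2 held TTTGGCGC, starting 39 bases after the start, and that of Cdk2 held GCGGGAAA, the other strand of the first, starting at -140. The share over all promoters was 2.26%. Promoters without a match say only that these letters are not in this window. For E2f1 the window lies inside the gene, and the bases before its outer end were not searched.

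Other genes of the same pathway were also mostly above a ratio of 1. Of 38 such genes, in 4 lists by role, 31 had a positive log2 ratio and 7 a negative one. The median was 0.22. A ratio of 1.5 or more was found in 4 of 38, beside 13.0% of all genes and 11.5% of protein-coding genes, and 1 was at 1/1.5 or less, beside 8.85% and 4.18%. The 31 stand beside 59.5% of all genes and 66.8% of protein-coding genes above a ratio of 1. Among 10 inhibitor and pocket protein genes, which restrain the kinases or E2F, the median was 0.25. Cdkn1b (p27) was highest with 145 S-phase and 125 G1 reads, a ratio of 1.52 (1.19 to 1.94), followed by Cdkn2d at 1.46. Cdkn1c at 1.06 and Rb1, the retinoblastoma gene, at 1.06 were lowest.

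Among 8 other E2F and DP genes the median was 0.30, and 0 of 8 passed 1.5. E2f7 at 1.48 and E2f8 at 1.39, atypical E2Fs that repress E2F targets, were highest. E2f4, a mainly repressive E2F, was lowest with 108 S-phase and 187 G1 reads, a ratio of 0.756 (0.591 to 0.963), and E2f5 was at 1.08. Among 12 other cyclins, kinases and phosphatases the median was 0.12. The mitotic cyclin Ccnb1 had 236 and 189 reads, a ratio of 1.63 (1.34 to 1.99), and the mitotic phosphatase gene Cdc25c was at 1.54. Ccna1, a germ-line cyclin, was lowest at 0.659 (0.489 to 0.881), and Ccnh at 0.744. Among 8 genes of cyclin and inhibitor turnover the median was 0.33, between Fbxo5 at 1.59 and Skp1 at 1.36 as the highest, and Skp2 at 0.932 and Cul1 at 1.12 as the lowest. The members' median of 0.26 lay between the lowest and the highest of the 4 lists' medians.

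**Figure D5:**
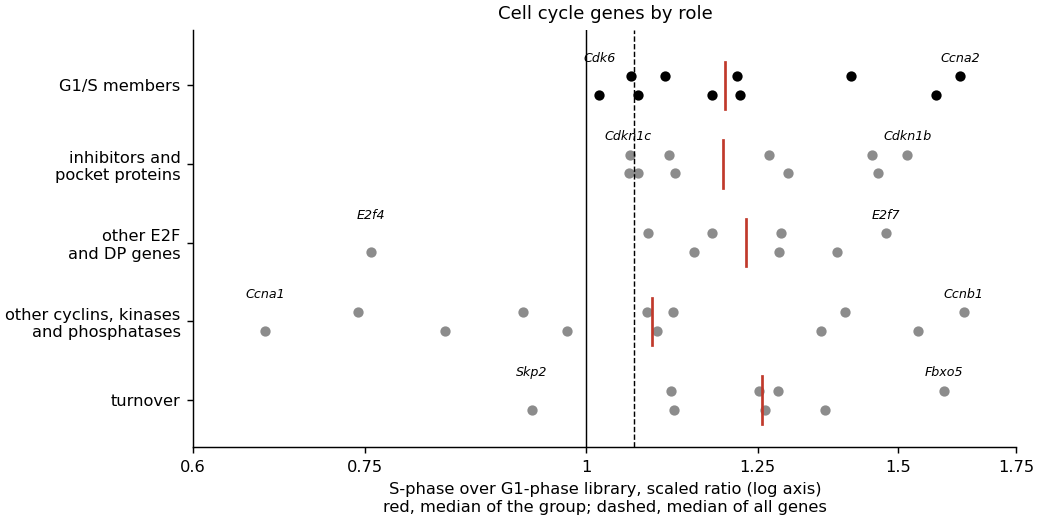
Scaled ratio of the S-phase to the G1-phase library, on a log axis, for the 10 G1/S genes (black) and 38 other cell cycle genes by role (grey), with each group's median in red, the median of all genes dashed and the outermost genes named. The groups overlap, and genes below 1 are most frequent among the other cyclins, kinases and phosphatases, 5 of 12.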

How the data were processed

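The authors deposited whole-number counts of END-seq read ends per base on mm10, strands apart, 1 library per group. The submitters' processing notes name Bowtie 1.1.2, SAMtools 1.11 and bedtools, with no settings; treatment of duplicates and of reads matching several places is not given in the sources used here, and it would alter stacked positions. Genes were matched by symbol to RefSeq GRCm38.p6, and starts and strands came from its promoter table, which holds 7 of the 10 genes. Counts were summed over each gene with 2 kb flanks and over 500 bp bins, and scaled to chromosomes 1 to 19 (Python 3.11.15, numpy 2.4.6, pandas 2.3.3, scipy 1.17.1, matplotlib 3.10.9). Intervals are conditional exact for ratios, exact Poisson for levels and Clopper-Pearson for shares. Log2 ratios used a pseudocount of 1 on scaled counts. As a check of the calculation only, gene ratios, their intervals and the 1.5-fold call were run on simulated counts. A pass limit was set for independent reads alone, so it does not cover reads stacked as they are here. The members and pathway lists were chosen with earlier results of these data known, and the cluster rule and both motif searches after the clusters were seen. All 10 members are named, with the 2 highest and 2 lowest genes of each list. Alternatives varied scaling, stacked reads, strand, flank, fold, minimum count, bin size and start window.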

Additional observations from a re-analysis of the deposited data

How the results depend on the processing

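Of 233 alternative values for 37 results, 182 stayed within counting error or within 1.5 times the count, 50 moved and 1 reversed. No cause was tested. Only a gene past 1.5-fold in the main setting could be labelled reversed. Other values that changed direction count as moved or as within counting error. Among the moved values, those of Ccnd2, Cdk2, Cdk4, Cdk6 and E2f1 fell below 1 in some settings. The members' median log2 ratio fell below 0 with no flank. Within counting error Ccnd2, Ccne1, Ccne2 and Cdk6 also fell below 1 under some settings, the lowest being 0.932 for Ccne2. With the median gene set to 1, Cdk6 was 0.945 and 1 gene passed 1.5. With the surrounding 1 Mb set to 1, Ccnd3 was 1.21, Cdk2 0.942, Cdk6 0.943, E2f2 1.30, the starts together 1.31, and 1 gene passed. Counting positions once gave Ccnd2 1.35 and Cdk6 1.12. On the plus strand alone E2f2, past 1.5 before, turned to 0.926 (0.743 to 1.15), E2f1 to 0.711 (0.542 to 0.927) and Ccnd2 to 0.796, the starts were at 1.22 and the median log2 ratio at 0.011, and 1 gene passed. On the minus strand alone Ccnd2 was 1.501, Ccne1 1.68, E2f1 1.497, E2f2 2.22, the starts 1.64 and the median 0.57, and 4 genes passed. With no flank Cdk2 was 0.654, Cdk4 0.907, E2f1 0.862 and the median -0.019, and 1 gene was lower. With 5 kb flanks 0 genes passed 1.5, and at a fold of 2 again 0. Plus-strand percentages with positions counted once were 48.7 for Ccne2 in S phase, 53.8 for Ccna2 in G1, and in S phase and G1 52.3 and 54.5 for Cdk2, 43.2 and 47.5 for E2f1, and 37.9 and 58.8 for E2f2. With no flank they were 48.9 for Ccne2 in S phase, and 28.6 and 29.8 for Cdk2, 68.6 and 48.5 for Cdk4, 48.1 and 51.9 for E2f1, and 36.0 and 63.1 for E2f2. Lower bins numbered 6 with 250 bp bins, 24 with 1 kb bins (18 higher) and 8 at a fold of 3. No paired analysis was possible because each group has 1 library. Depth limits single bins and start windows, many of which hold under 50 reads.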
